A study of Homo sapiens with 6 samples.

Results

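The genes described here encode the factors that start and extend protein synthesis, the eukaryotic translation initiation factors (eIF) and elongation factors (eEF). They were taken by name: every locus carrying a gene name that begins with EIF1 to EIF6, EEF1 or EEF2, without the EIF2AK kinases, the Argonaute genes once named EIF2C, EIF4ENIF1 and names with a pseudogene ending. This gave 61 of 62828 loci. The rule reads names only, but this group of genes was picked with earlier results of these data known. Of these, 53 averaged 1 FPKM or more across the libraries and are analysed, 7 averaged less, and the Y-linked EIF1AY is not described. The unit of the deposited values is taken to be FPKM, fragments per kilobase of transcript scaled to library size, since no header states it.

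The study compared K562 cells, a chronic myelogenous leukemia line that the labels trace to bone marrow, after transfection with siRNA against HNRNPU at 300 nM (knockdown) or with control oligos (control). HNRNPU is an abundant nuclear protein that binds RNA and chromatin, and the study's stated subject is the subcellular localization of long noncoding RNAs. From each condition whole-cell, nuclear and cytosolic RNA was sequenced after depletion of ribosomal RNA, which gives 6 groups of 1 library. No difference therefore has a replicate check and none was tested: every value describes these libraries, and a difference between them may lie within the variation between cultures. In such bulk RNA a smaller share of cells and less RNA per cell cannot be told apart.

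Initiation begins when eIF2, carrying GTP and the initiator tRNA, joins the small ribosomal subunit together with eIF1, eIF1A, eIF3 and eIF5. The cap-binding complex of eIF4E, eIF4G and the helicase eIF4A brings the mRNA, the subunit scans to a start codon, and eIF5B joins the large subunit. In elongation eEF1A delivers aminoacyl-tRNA, the eEF1B subunits reload it with GTP, and eEF2 moves the ribosome along by a codon. Many elongation factor mRNAs, like those of ribosomal proteins, start with a C followed by a run of pyrimidines, the 5′ terminal oligopyrimidine (TOP) tract, through which mTOR signalling controls their translation.

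Because the start of the transcript sets this class apart, the annotated starts were searched for it. RefSeq promoter windows (GRCh38.p14, a later build than the hg19 coordinates of the deposited table, matched by gene symbol) were available for 43 of the 52 protein-coding members analysed. The tract was defined as a C at the annotated start followed by at least 4 bases that are each C or T, read on the coding strand. It was found at a listed start of 12 of the 43 members (27.9%), against 4.07% of all 35116 windows in the table, 5.14% of gene symbols counted at any listed start like the members, and 7.74% of the analysed loci with a single name and an entry. The windows below run from 20 bases before the start to 20 bases from it on, 5′ to 3′, with the tract in capitals. They are shown for 3 abundant elongation factors and 3 initiation factors with the tract, and for the 3 factors without it whose RNA lay furthest toward the nucleus in control cells.
EEF1A1 (chr6:73521013-73521052, minus strand): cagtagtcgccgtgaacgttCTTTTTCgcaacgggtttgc
EEF2 (chr19:3985444-3985483, minus strand): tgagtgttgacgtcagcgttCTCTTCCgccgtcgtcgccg
EEF1B2 (chr2:206159875-206159914, plus strand): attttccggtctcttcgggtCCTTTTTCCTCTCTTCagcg
EIF4B (chr12:53006436-53006475, plus strand): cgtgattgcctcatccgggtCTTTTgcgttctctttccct
EIF3F (chr11:7987317-7987356, plus strand): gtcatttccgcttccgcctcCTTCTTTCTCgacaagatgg
EIF4A2 (chr3:186783557-186783596, plus strand): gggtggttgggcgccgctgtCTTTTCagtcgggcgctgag
EIF4G1 (chr3:184314586-184314625, plus strand): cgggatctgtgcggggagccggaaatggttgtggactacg
EIF5B (chr2:99337369-99337408, plus strand): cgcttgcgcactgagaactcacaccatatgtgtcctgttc
EEF2K (chr16:22206258-22206297, plus strand): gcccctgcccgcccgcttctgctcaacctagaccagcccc
EIF2A, EIF2D, EIF2S3, EIF3D, EIF3K and EIF3M held it as well. EEF1G belongs to the known TOP genes, yet its annotated start does not hold the tract as defined. A match describes the letters at an annotated start, which need not be the start used in K562 cells.

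The 6 libraries were checked before the members were compared. The HNRNPU locus, which also carries the name HNRNPU-AS1, had 55.3 FPKM in whole-cell, 63.7 FPKM in nuclear and 34.9 FPKM in cytosolic RNA of knockdown cells, against 129, 163 and 158 FPKM in the same preparations of control cells, so the knockdown was lower in every preparation. All 10 genes of a list for K562 and the erythroid lineage were above the minimum mean, HBG2 and HBE1 among them as 1 merged locus, whereas CDH1, CD79A and MS4A1, which mark epithelial or lymphoid cells, stayed below it. The keratin genes KRT8, KRT18 and KRT19, EPCAM, CD3D and CD3E were above it. MALAT1, a nuclear RNA, and GAS5, a cytosolic one, lay on the sides of the fractionation that their labels name. Depth differed: each FPKM of a transcript of 1 kilobase corresponded to about 39.1 fragments in the knockdown and 19.5 in the control nuclear library, 18.8 and 23.2 in the knockdown and control whole-cell libraries, and 14.8 and 13.4 in the knockdown and control cytosolic libraries.

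Translation factor RNA was abundant and uneven. In whole-cell RNA the 53 loci together held 3.93% of all FPKM in knockdown cells and 3.81% in control cells, with mitochondrial and small RNAs left out of the total. The share was 3.17% in knockdown and 2.88% in control nuclear RNA, and 5.61% in knockdown and 5.76% in control cytosolic RNA. A single gene, EEF1A1, made up 41.7% of the members' FPKM in knockdown and 41.8% in control whole-cell RNA. Levels spanned 2414-fold in knockdown and 1430-fold in control whole-cell RNA, with EEF1A1 at the top and EIF4E3 at the bottom of both.

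**Figure D1:**
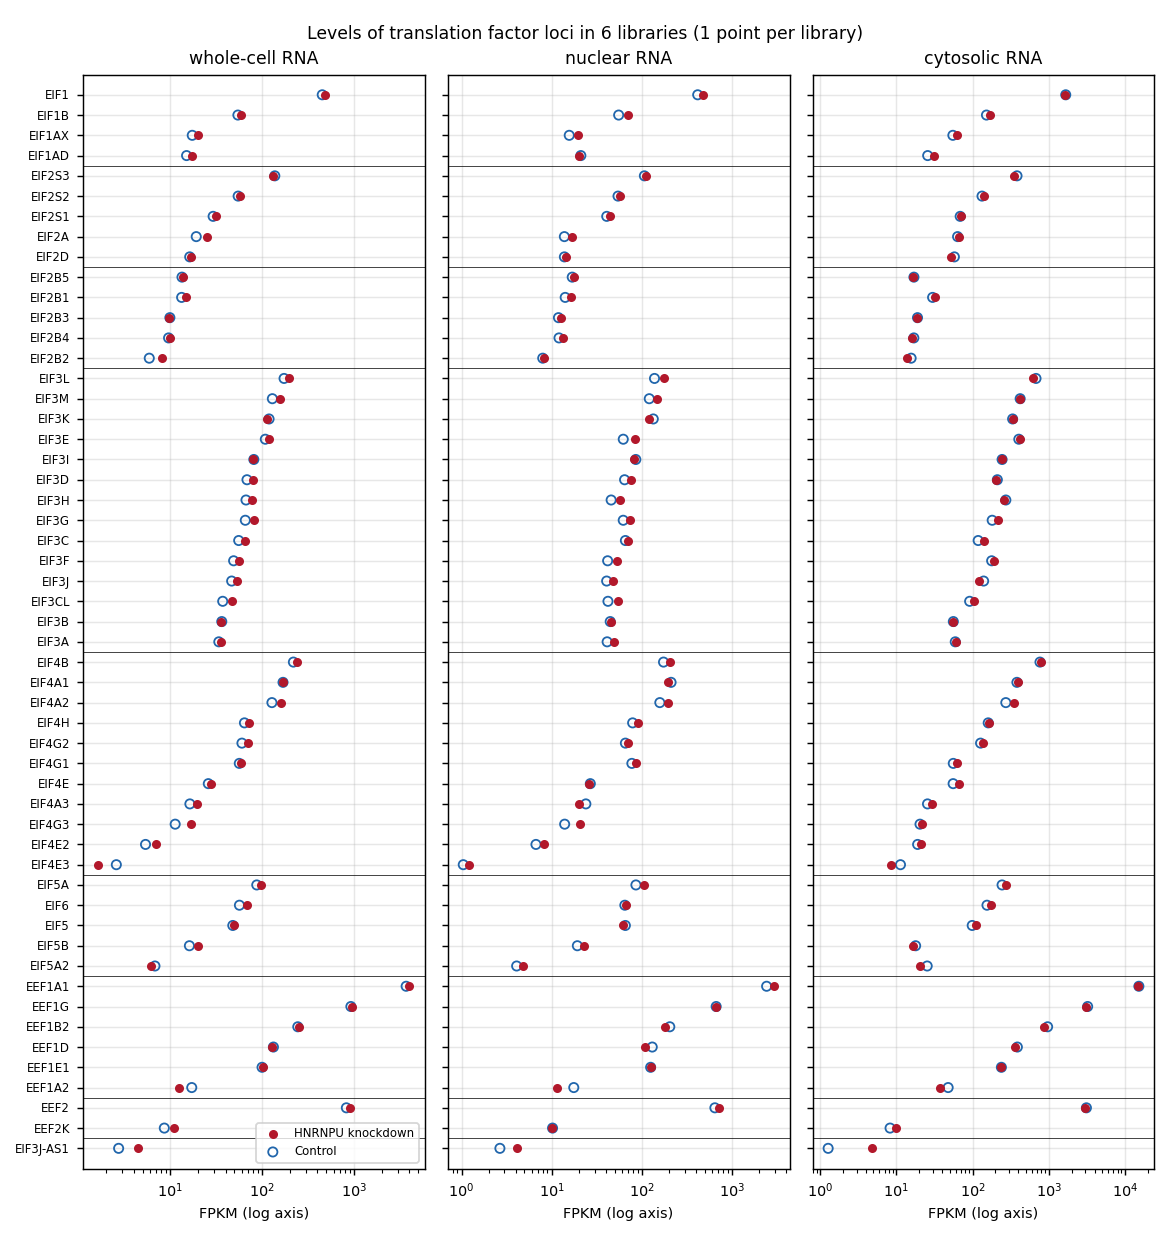
Level of each of the 53 loci in FPKM (log axis) in whole-cell, nuclear and cytosolic RNA, 1 point per library, with knockdown filled and control open, grouped by complex. The elongation factors EEF1A1, EEF1G and EEF2 sit at the right in every panel, and filled and open points of most loci nearly coincide.

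The eEF1 complex held the highest levels of all. EEF1A1 (chromosome 6, 74225472 to 74233520 on hg19), which delivers aminoacyl-tRNA to the ribosome, had 3985 FPKM in whole-cell, 2944 FPKM in nuclear and 14691 FPKM in cytosolic RNA of knockdown cells, against 3702, 2438 and 15233 FPKM in the same preparations of control cells. As deposited, the knockdown level was the higher in whole-cell and nuclear RNA and the lower in cytosolic RNA. Its cytosolic level was 4.99 times the nuclear level in knockdown and 6.25 times in control cells. EEF1G, the scaffold subunit of the exchange factor, sits in a locus merged with TUT1 and MIR3654 and had 963 whole-cell, 677 nuclear and 3065 cytosolic FPKM in knockdown cells, and 926 whole-cell, 672 nuclear and 3240.0 cytosolic FPKM in control cells. These exceeded every other member but EEF1A1, save that EEF2 was above EEF1G in knockdown nuclear RNA. EEF1B2, the catalytic exchange subunit, had 254 FPKM in knockdown and 245 FPKM in control whole-cell RNA, 181 FPKM in knockdown and 205 FPKM in control nuclear RNA, and 868 FPKM in knockdown and 966 FPKM in control cytosolic RNA. EEF1E1, a scaffold of the aminoacyl-tRNA synthetase complex despite its name, shared a locus with BLOC1S5 and TXNDC5 and was the least cytosolic of the group, with a log2 ratio of nuclear to cytosolic FPKM of -0.89 in knockdown and -0.93 in control cells. It had 103 whole-cell, 128 nuclear and 238 cytosolic FPKM in knockdown cells, and 99.9 whole-cell, 126 nuclear and 239 cytosolic FPKM in control cells.

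EEF1A2 (chromosome 20, 62119365 to 62130505 on hg19), the eEF1A form that replaces EEF1A1 in adult muscle and neurons, was a small minority in these cells. It had 12.4 FPKM in whole-cell, 11.5 FPKM in nuclear and 36.96 FPKM in cytosolic RNA of knockdown cells, against 17.2, 17.6 and 47.8 FPKM in the same preparations of control cells. The knockdown was lower in all 3 preparations, at 72.4% of the control level for whole-cell, 65.5% for nuclear and 77.3% for cytosolic RNA. In log2(FPKM + 0.1), the scale of every ratio below, that is -0.46 (whole-cell), -0.61 (nuclear) and -0.37 (cytosolic), with counting errors of 0.1001, 0.0868 and 0.0706 that cover sampling of fragments only. EEF1A1 exceeded EEF1A2 by 321-fold in knockdown and 216-fold in control whole-cell RNA.

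All 6 eEF1 loci were lower in knockdown than in control cytosolic RNA, with log2 ratios from -0.37 to -0.01, against 44% of all analysed loci below 0. The smallest difference, -0.0071, was that of EEF1E1, whose locus is shared with BLOC1S5 and TXNDC5. This direction was not particular to eEF1: 56 of 83 ribosomal protein loci were below 0 as well. The scale of the eEF1 ratios is small beside the 1.5-fold used to name changes here, and EEF1A2 alone came near it. In whole-cell RNA 4 of the 6 were above 0 (background 60.7%). The count was 1 when the libraries were centred on the median locus or scaled to equal totals. These scalings also lowered the all-loci median, from 0.06 to -0.01 with centring and to 0.00058 with equal totals. The share of all loci above 0 was not computed for them. EEF1D, another exchange subunit, was the only other member besides EEF1A2 below 0 in all 3 preparations as deposited, at -0.05 (whole-cell), -0.27 (nuclear) and -0.09 (cytosolic); across all loci 13.2% were. With centring 8 members were (background 18.9%), and with equal totals 6 (background 17%).

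EEF2 (chromosome 19, 3976053 to 3985467 on hg19), the translocase of elongation, had 904 FPKM in whole-cell, 724 FPKM in nuclear and 3034 FPKM in cytosolic RNA of knockdown cells, against 827, 650.0 and 3121 FPKM in the same preparations of control cells. The order of knockdown and control in each preparation was that of EEF1A1. Its RNA was 4.19-fold higher in cytosolic than nuclear RNA of knockdown cells and 4.80-fold higher in control cells. EEF2K, the kinase that inactivates eEF2, was far less abundant, with EEF2 82.8-fold above it in knockdown and 95.97-fold above it in control whole-cell RNA, and lay on the other side of the fractionation. It had 10.9 whole-cell, 10.2 nuclear and 9.89 cytosolic FPKM in knockdown cells, and 8.62 whole-cell, 10.2 nuclear and 8.27 cytosolic FPKM in control cells, a log2 nuclear to cytosolic ratio of 0.04 in knockdown and 0.31 in control cells. Of the windows above, that of EEF2 holds a pyrimidine tract and that of EEF2K does not. EEF2K was printed for lacking the tract and for its nuclear position, so this pair does not show a link. EIF4E3 also lacks the tract, yet lay at -2.70 in knockdown and -3.32 in control cells.

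Among the factors of start-codon selection, EIF1, which guards start-codon fidelity, was the most abundant. It had 489 FPKM in whole-cell, 482 FPKM in nuclear and 1637 FPKM in cytosolic RNA of knockdown cells, against 452, 419 and 1671 FPKM in the same preparations of control cells. Knockdown was the higher in whole-cell and nuclear RNA and the lower, by little, in cytosolic RNA. Its close copy EIF1B had 58.9 whole-cell, 71.4 nuclear and 169.9 cytosolic FPKM in knockdown cells, and 54.5 whole-cell, 55.5 nuclear and 152 cytosolic FPKM in control cells, so that EIF1 supplied 89.3% of the pair in knockdown and 89.2% in control whole-cell RNA. EIF1AD, named for its eIF1A-like domain, was the least cytosolic of the group. It had 17.4 FPKM in knockdown and 15.1 FPKM in control whole-cell RNA, 20.1 FPKM in knockdown and 21.1 FPKM in control nuclear RNA, and 30.8 FPKM in knockdown and 25.8 FPKM in control cytosolic RNA, a log2 nuclear to cytosolic ratio of -0.61 in knockdown and -0.29 in control cells.

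The 3 subunits of eIF2 were present at unequal levels. EIF2S3, the gamma subunit that binds GTP and the initiator tRNA, had 131 FPKM in whole-cell, 113 FPKM in nuclear and 346 FPKM in cytosolic RNA of knockdown cells, against 138, 107 and 383 FPKM in the same preparations of control cells. Knockdown was the lower in whole-cell and cytosolic RNA and the higher in nuclear RNA. EIF2S1, the alpha subunit whose phosphorylation lowers initiation under stress, had 31.3 whole-cell, 44.3 nuclear and 70.1 cytosolic FPKM in knockdown cells, and 29.3 whole-cell, 40.9 nuclear and 68.8 cytosolic FPKM in control cells, which is lower than EIF2S3 in every library. It was also the least cytosolic of the group, with log2 nuclear to cytosolic ratios of -0.66 in knockdown and -0.75 in control cells. EIF2A, a separate protein that can deliver initiator tRNA without eIF2, was the most cytosolic, at -1.98 in knockdown and -2.19 in control cells. It had 25.2 FPKM in knockdown and 19.2 FPKM in control whole-cell RNA, 17.03 FPKM in knockdown and 13.9 FPKM in control nuclear RNA, and 67.4 FPKM in knockdown and 63.6 FPKM in control cytosolic RNA.

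The 5 subunits of eIF2B, the factor that exchanges GDP for GTP on eIF2, were all of low and similar level. Between the lowest and the highest subunit the whole-cell levels differed 1.81-fold in knockdown and 2.27-fold in control cells. EIF2B5, the catalytic epsilon subunit, had 13.9 FPKM in whole-cell, 17.9 FPKM in nuclear and 16.5 FPKM in cytosolic RNA of knockdown cells, against 13.4, 16.9 and 16.99 FPKM in the same preparations of control cells, and its nuclear and cytosolic levels were close in both conditions, with a log2 ratio of 0.12 in knockdown and -0.0039 in control cells. The EIF2B5 locus (chromosome 3, 183852825 to 184402546 on hg19) encloses the separate EIF4G1 locus. How much of its value comes from overlapping transcripts was not tested. EIF2B1, the alpha subunit that lets eIF2B sense phosphorylated eIF2, was the most cytosolic, at -0.99 in knockdown and -1.07 in control cells, with 14.7 whole-cell, 16.4 nuclear and 32.6 cytosolic FPKM in knockdown cells, and 13.3 whole-cell, 14.2 nuclear and 29.9 cytosolic FPKM in control cells. As a group eIF2B was near the middle of all loci in its fractionation, with a median log2 nuclear to cytosolic ratio of -0.56 in knockdown and -0.66 in control cells, against -0.47 and -0.44 over all 12824 loci.

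eIF3, the largest initiation factor, with 13 core subunits, was represented by 14 loci because EIF3C has a near-identical copy, EIF3CL, whose counts cannot be separated with certainty. The subunits lay within 5.51-fold of each other in knockdown and 5.13-fold in control whole-cell RNA. In cytosolic RNA they spread more widely, over 11.1-fold in knockdown and 12.2-fold in control cells, and in nuclear RNA less, over 3.88-fold and 3.40-fold in knockdown and control cells. EIF3L (chromosome 22, 38244874 to 38285414 on hg19) was the most abundant, with 195 FPKM in whole-cell, 175 FPKM in nuclear and 615 FPKM in cytosolic RNA of knockdown cells, against 173, 139 and 680.4 FPKM in the same preparations of control cells. Its knockdown level was the higher in whole-cell and nuclear RNA and the lower in cytosolic RNA. EIF3E, a subunit also known as INT6, was the most cytosolic, at -2.35 in knockdown and -2.69 in control cells, and had 118 whole-cell, 83.6 nuclear and 425 cytosolic FPKM in knockdown cells, and 108 whole-cell, 62.5 nuclear and 405 cytosolic FPKM in control cells. EIF3B, which with EIF3A nucleates the complex, was the least cytosolic, at -0.30 in knockdown and -0.32 in control cells, and had 35.4 FPKM in knockdown and 36.4 FPKM in control whole-cell RNA, 45.2 FPKM in knockdown and 44.8 FPKM in control nuclear RNA, and 55.6 FPKM in knockdown and 55.9 FPKM in control cytosolic RNA. EIF3A, the largest subunit, was next to it at -0.32 in knockdown and -0.52 in control cells. The lowest ratios belonged to EIF3E, EIF3H, EIF3L and EIF3F, of which EIF3E, EIF3H and EIF3F are known TOP genes.

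In the cap-binding complex EIF4B, the cofactor of the eIF4A helicase, was the most abundant mRNA in whole-cell RNA. It had 241 FPKM in whole-cell, 204 FPKM in nuclear and 785 FPKM in cytosolic RNA of knockdown cells, against 219, 175 and 767 FPKM in the same preparations of control cells. Knockdown was the higher in each preparation as deposited. The helicase itself was shared between EIF4A1, with 170.2 whole-cell, 198 nuclear and 399.8 cytosolic FPKM in knockdown cells, and 169 whole-cell, 212 nuclear and 382 cytosolic FPKM in control cells, and EIF4A2, with 161 whole-cell, 195 nuclear and 354 cytosolic FPKM in knockdown cells, and 128 whole-cell, 159 nuclear and 273 cytosolic FPKM in control cells. EIF4A3, the helicase core of the exon junction complex rather than an initiation factor, had 19.8 FPKM in knockdown and 16.4 FPKM in control whole-cell RNA, 19.9 FPKM in knockdown and 24.01 FPKM in control nuclear RNA, and 29.2 FPKM in knockdown and 25.6 FPKM in control cytosolic RNA. EIF4A2 (chromosome 3, 186500993 to 186507689 on hg19) held 45.8% of the summed FPKM of the 3 paralogs in knockdown and 40.8% in control whole-cell RNA, 47.2% in knockdown and 40.3% in control nuclear RNA, and 45.2% in knockdown and 40.1% in control cytosolic RNA. EIF4A1 held 48.5% in knockdown and 53.9% in control whole-cell RNA, and in knockdown nuclear RNA both were nearly level. The EIF4A2 locus also carries SNORA4, SNORA63, SNORA81 and SNORD2, and the EIF4A1 locus CD68, SENP3 and 3 small nucleolar RNA names. How much of each value comes from them was not tested.

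The scaffold eIF4G differed by fraction. EIF4G1 (chromosome 3, 184032282 to 184053146 on hg19), the main scaffold that joins eIF4E, eIF4A and eIF3, had 58.6 FPKM in whole-cell, 87.1 FPKM in nuclear and 62.6 FPKM in cytosolic RNA of knockdown cells, against 56.5, 77.8 and 55.8 FPKM in the same preparations of control cells. EIF4G2, also known as DAP5, which lacks the eIF4E-binding region, had 69.8 whole-cell, 71.2 nuclear and 137 cytosolic FPKM in knockdown cells, and 60.3 whole-cell, 65.98 nuclear and 127 cytosolic FPKM in control cells. EIF4G2 therefore made up 61.7% of the 3 paralogs' FPKM in knockdown and 62.6% in control cytosolic RNA, but 39.8% in knockdown and 41.8% in control nuclear RNA, where EIF4G1 led. EIF4G1 was one of the few members higher in nuclear than in cytosolic RNA as deposited, at 0.48 in knockdown and 0.48 in control cells. EIF4G3 (chromosome 1, 21132962 to 21503377 on hg19), a further scaffold, had 16.9 FPKM in knockdown and 11.3 FPKM in control whole-cell RNA, 20.6 FPKM in knockdown and 13.97 FPKM in control nuclear RNA, and 22.02 FPKM in knockdown and 20.4 FPKM in control cytosolic RNA. As deposited all 3 scaffolds had the higher level in knockdown cells in each preparation, by the most in EIF4G3 whole-cell and nuclear RNA.

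The cap-binding proteins were low. EIF4E, the limiting cap-binding factor, had 27.9 FPKM in whole-cell, 26.01 FPKM in nuclear and 65.7 FPKM in cytosolic RNA of knockdown cells, against 25.97, 26.9 and 55.6 FPKM in the same preparations of control cells. Its nuclear levels in both conditions nearly coincided. EIF4E2, a cap-binding repressor also known as 4EHP, had 6.92 whole-cell, 8.29 nuclear and 21.2 cytosolic FPKM in knockdown cells, and 5.38 whole-cell, 6.70 nuclear and 19.01 cytosolic FPKM in control cells. EIF4E3 (chromosome 3, 71724566 to 71803924 on hg19), an atypical member of the family, was the least abundant locus of all in whole-cell and nuclear RNA, with 1.65 FPKM in knockdown and 2.59 FPKM in control whole-cell RNA, 1.21 FPKM in knockdown and 1.05 FPKM in control nuclear RNA, and 8.39 FPKM in knockdown and 11.3 FPKM in control cytosolic RNA. It was at the same time the most cytosolic member, 6.93-fold higher in cytosolic than nuclear RNA of knockdown cells and 10.8-fold higher in control cells. Its lowest estimate was 58.4 fragments, in control nuclear RNA, the smallest of the 52 members with an estimate, which leave out EIF3J-AS1.

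**Figure D2:**
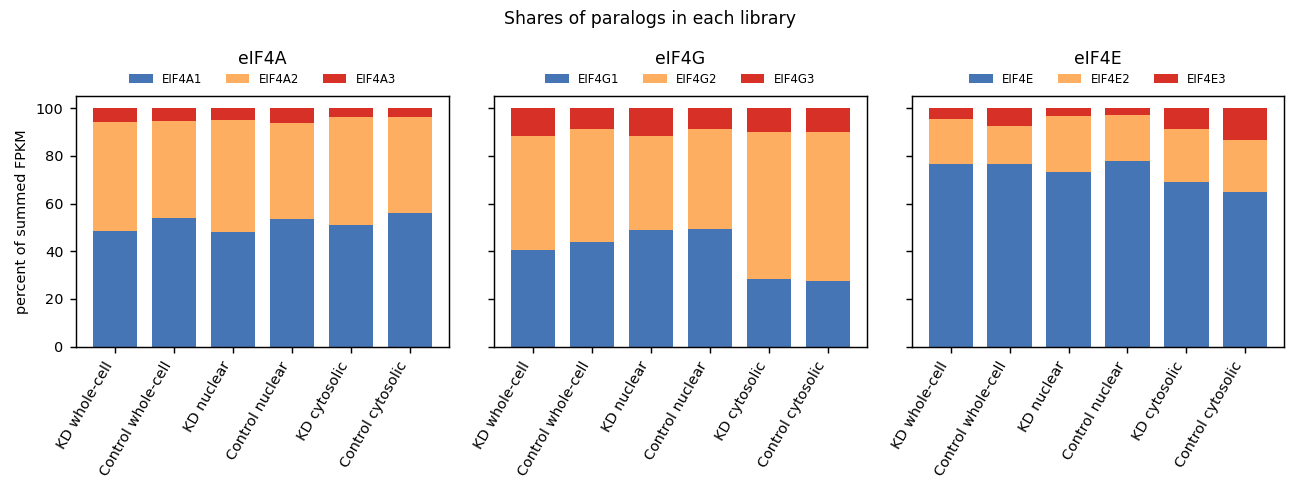
Share of each paralog, in percent of the summed FPKM of its group, in each of the 6 libraries (KD is the HNRNPU knockdown), for eIF4A, eIF4G and eIF4E. EIF4A2 takes a larger share in each knockdown library than in its control, and EIF4G2 takes 61.7% and 62.6% of the eIF4G group in knockdown and control cytosolic RNA.

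Of the late factors, EIF5A, the hypusine-containing protein that helps ribosomes over difficult peptide bonds, was the most abundant, with 97.98 FPKM in whole-cell, 107 FPKM in nuclear and 275 FPKM in cytosolic RNA of knockdown cells, against 87.5, 86.3 and 244 FPKM in the same preparations of control cells. Knockdown was the higher in each preparation as deposited. Its copy EIF5A2 had 6.17 whole-cell, 4.77 nuclear and 20.3 cytosolic FPKM in knockdown cells, and 6.82 whole-cell, 4.09 nuclear and 25.4 cytosolic FPKM in control cells. EIF5A supplied 94.1% of the pair in knockdown and 92.8% in control whole-cell RNA, and EIF5A2 was the most cytosolic of the group, at -2.07 in knockdown and -2.60 in control cells. EIF5B (chromosome 2, 99953815 to 100017789 on hg19), the GTPase of subunit joining, was the least cytosolic, at 0.49 in knockdown and 0.11 in control cells, and had 19.9 FPKM in knockdown and 16.2 FPKM in control whole-cell RNA, 23.1 FPKM in knockdown and 19.3 FPKM in control nuclear RNA, and 16.5 FPKM in knockdown and 17.9 FPKM in control cytosolic RNA.

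Taking all complexes, translation factor RNA lay toward the cytosol relative to the rest of the transcriptome. The median log2 nuclear to cytosolic ratio of the 53 members was -1.35 in knockdown and -1.32 in control cells, against -0.47 and -0.44 over all analysed loci. At least 2-fold higher in cytosolic than nuclear RNA were 32 of 53 members in knockdown cells (60.4%, background 28.4%) and 33 in control cells (62.3%, background 29.1%). At least 2-fold higher in nuclear RNA was no member in knockdown cells (background 14.4%) and EIF3J-AS1 alone in control cells (background 16%). The background includes noncoding loci. Over the 9893 analysed loci with a protein-coding name the median was -0.60 in knockdown and -0.61 in control cells. Of these, 32.0% in knockdown and 32.7% in control cells were at least 2-fold higher in cytosolic RNA, and 5.64% and 6.70% in nuclear RNA. Of the 52 protein-coding members, 42 lay below the median of all loci in both conditions, against 44.3% of all loci.

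Where 0 falls depends on the scaling of the libraries, since the deposited columns summed to 1811620 FPKM in knockdown and 1781860 FPKM in control cytosolic RNA but 767744 and 802344 FPKM in knockdown and control nuclear RNA. Centring the libraries on the median locus moved the all-loci median to 0.13 in both conditions, and equal totals moved it to 0.64 in knockdown and 0.68 in control cells. With centring, 18 members were at least 2-fold higher in cytosolic and 2 in nuclear RNA of knockdown cells (background 9.61% and 23.2%), and 19 and 2 in control cells (background 11% and 24.6%). With equal totals the counts were 6 and 5 in knockdown cells (background 2.52% and 36.5%), and 10 and 6 in control cells (background 3.09% and 39%). The distance of the members' median from that of all loci was -0.88 in knockdown and -0.88 in control cells as deposited. With centring it was -0.87 and -0.86, and with equal totals -0.86 and -0.84. Each scaling multiplies every locus of a library by the same factor. The distance can therefore move only through the pseudocount, and its steadiness is no check of the result. With a minimum mean of 5 FPKM it was -0.66 in knockdown and -0.61 in control cells. As deposited, the whole-cell level of 26 members in knockdown and 25 in control cells lay between their nuclear and cytosolic levels. The same count over all loci was not computed, so it is not a trait of the members.

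**Figure D3:**
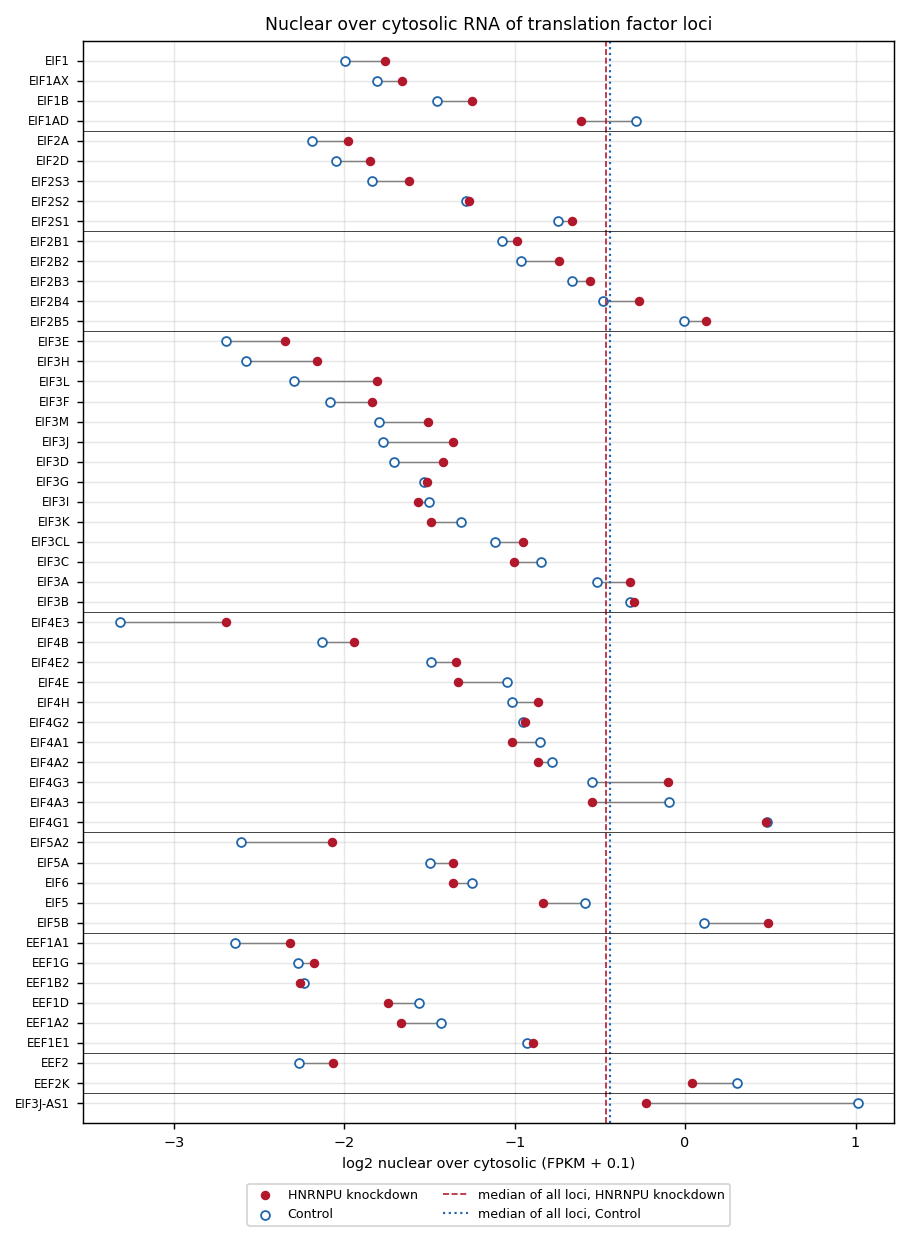
Log2 ratio of nuclear to cytosolic FPKM of each of the 53 loci, knockdown filled and control open, joined by a line and grouped by complex, with the medians of all loci as vertical lines. Most members lie left of the all-loci medians of -0.47 in knockdown and -0.44 in control cells, and the line of EIF3J-AS1 is the longest.

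The complexes differed in how far they lay toward the cytosol. The eEF1 group had a median log2 nuclear to cytosolic ratio of -1.96 in knockdown and -1.90 in control cells, the eIF2 group -1.62 and -1.84, and eIF3 -1.50 and -1.62. The eIF2 group counts EIF2A and EIF2D beside the subunits. Of the subunits, EIF2S1 had -0.66 in knockdown and -0.75 in control cells, EIF2S2 -1.27 and -1.28, and EIF2S3 -1.62 and -1.84. The order of eIF2 and eIF3 therefore rests on counting EIF2A and EIF2D. The eIF4 group had -0.94 and -0.95, and eIF2B -0.56 and -0.66. The 9 known TOP genes among the members, EEF1A1, EEF1B2, EEF1D, EEF1G, EEF2, EIF3E, EIF3F, EIF3H and EIF4B, had a median of -2.16 in knockdown and -2.26 in control cells, and each was at least 2-fold higher in cytosolic RNA in both conditions. With equal totals all 9 were still higher in cytosolic RNA, 5 of them at least 2-fold in knockdown and 6 in control cells. The deposited median is close to the 83 ribosomal protein loci, at -2.03 in knockdown and -2.10 in control cells, and apart from the other 43 protein-coding members, at -1.02 and -1.07.

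The search of annotated starts gave a similar division. The 12 members with the pyrimidine tract had a median of -1.84 in knockdown and -2.07 in control cells, and 11 of them were at least 2-fold higher in cytosolic RNA in both conditions, against 46.2% in knockdown and 48.7% in control cells of all analysed loci with a single name and the tract. The exception was EIF4A2, whose tract is among those printed above, at -0.86 in knockdown and -0.78 in control cells. The 31 members with an entry but no tract had -0.94 in knockdown and -0.95 in control cells, and 14 of them were at least 2-fold higher in cytosolic RNA of each condition, against 30.0% in knockdown and 31.0% in control cells of such loci without it. Over all analysed loci with a single name the same division was smaller, -0.91 with the tract and -0.57 without it in knockdown cells, and -0.96 and -0.57 in control cells. Known TOP genes, ribosomal protein genes and these tracts overlap, so these counts are not independent of each other.

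The coding length of the mRNA ran alongside. Over the 52 protein-coding members log2 coding length correlated with the log2 nuclear to cytosolic ratio at Pearson r = 0.44 in knockdown and 0.37 in control cells, and over 8649 protein-coding loci with a single name at 0.46 and 0.43. By rank the members' correlation was weaker than that of all loci, with Spearman rho of 0.29 in both conditions over the members, against 0.50 in knockdown and 0.46 in control cells over all loci. These are correlations across genes within the same libraries and carry no test. The 12 members with a coding sequence of 2000 bases or more, among them EIF4G1, EIF4G3, EIF5B and EIF3A, had a median of -0.31 in knockdown and -0.53 in control cells, against -0.15 for all loci of that length in both. The 20 members from 1000 to under 2000 bases had -1.64 in knockdown and -1.82 in control cells, against -0.60 and -0.59 for all loci of that length. The 20 shorter members had -1.36 and -1.47 in knockdown and control cells, against -1.18 and -1.16. EEF2, with 2574 coding bases, lay with the short mRNAs, at -2.07 in knockdown and -2.26 in control cells. EEF1D, with 2091 coding bases, was also low, at -1.75 and -1.56. Each length is that of the longest annotated coding sequence of the gene, which need not be the form present in K562 cells.

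**Figure D4:**
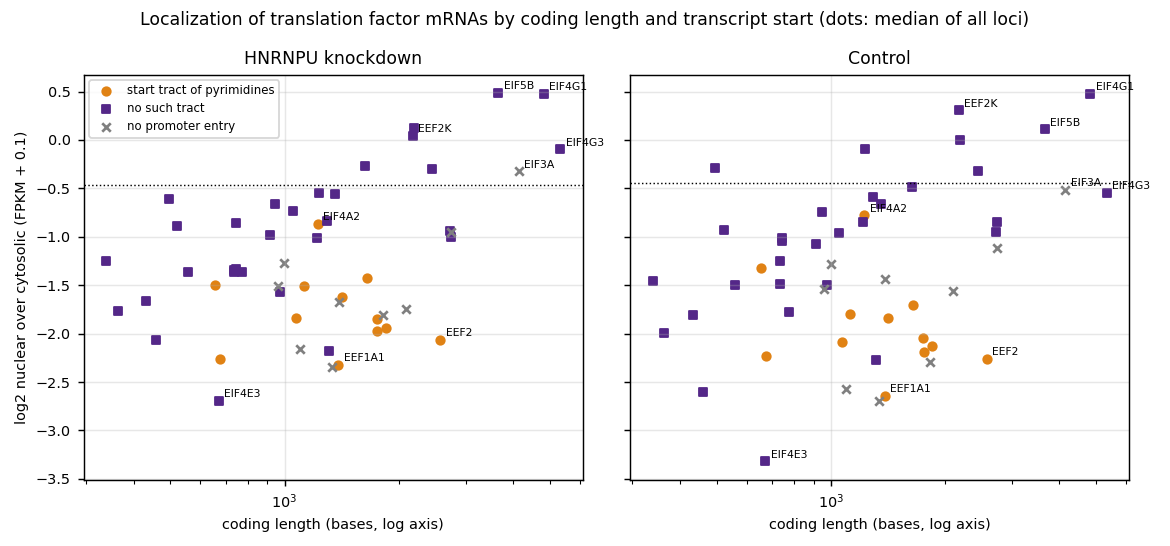
Log2 ratio of nuclear to cytosolic FPKM against coding length in bases (log axis) for the 52 protein-coding members, knockdown in the left and control in the right panel, marked by whether an annotated start holds the pyrimidine tract; the dotted line is the median of all loci. The long mRNAs EIF4G1, EIF4G3 and EIF5B sit high, and EEF2 sits low for its length.

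HNRNPU knockdown left most translation factor RNAs close to their control levels. The median log2 ratio of knockdown to control over the 53 members was 0.13 for whole-cell RNA (0.06 over all loci), 0.16 for nuclear RNA (0.03) and 0.03 for cytosolic RNA (0.03). At least 1.5-fold higher in knockdown was 1 member in each preparation, EIF3J-AS1, against 4.76% of all loci for whole-cell RNA, 3.85% for nuclear RNA and 6.4% for cytosolic RNA. At least 1.5-fold lower were EIF4E3 in whole-cell RNA (background 3.87%) and EEF1A2 in nuclear RNA (background 4.73%), and no member in cytosolic RNA (background 5.9%). Over loci with a protein-coding name the shares higher were 3.22% (whole-cell), 2.23% (nuclear) and 3.31% (cytosolic), and those lower 2.21%, 2.88% and 2.96%. In control whole-cell RNA the median level was 54.5 FPKM over the members and 7.10 FPKM over all loci. The backgrounds are thus not matched for level. Of the 53 members, 23 were above 0 in all 3 preparations, against 24.6% of all loci, 2 were below 0 in all 3, and 28 were mixed. Centring left 16 above 0 in all 3 (background 17.6%) and equal totals 21 (background 19.9%).

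**Figure D5:**
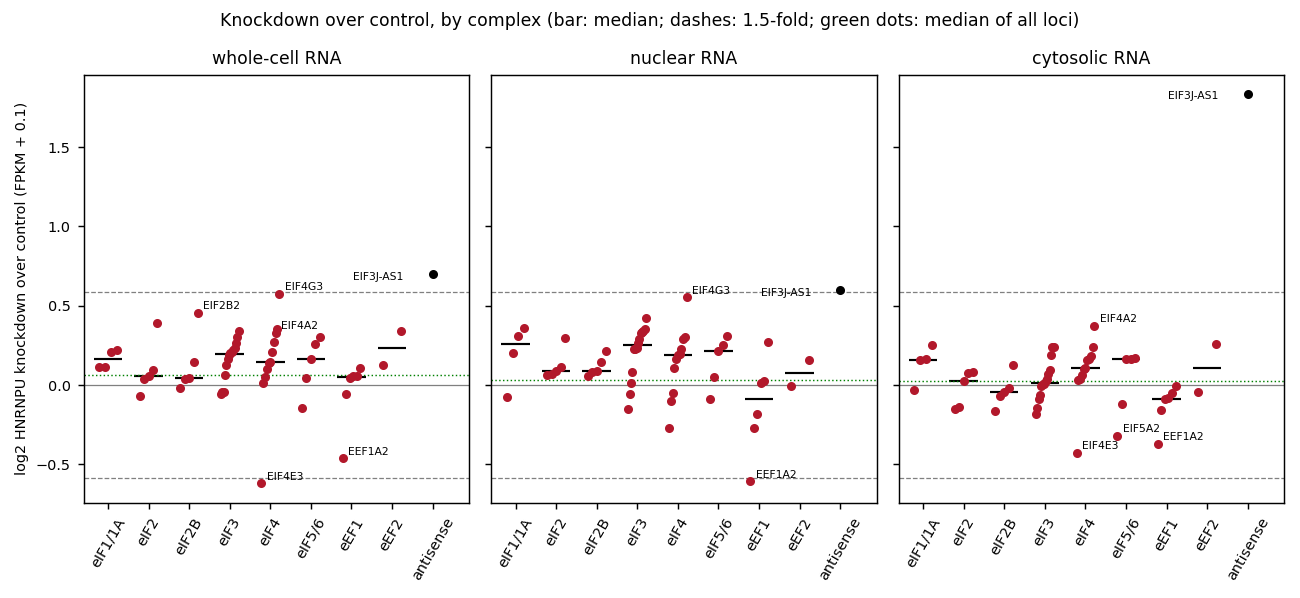
Log2 ratio of knockdown to control in whole-cell, nuclear and cytosolic RNA, 1 point per locus, by complex, with the complex median as a bar, 1.5-fold as dashes and the median of all loci as a dotted line. Beyond the dashes lie EIF3J-AS1 in all 3 panels, EIF4E3 in whole-cell and EEF1A2 in nuclear RNA.

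The members with the largest ratios were of low level. EIF4E3 had log2 ratios of -0.62 (whole-cell), 0.19 (nuclear) and -0.43 (cytosolic), with counting errors of 0.188, 0.226 and 0.103, so its direction in nuclear RNA lay within counting error. EIF4G3 lay just inside 1.5-fold on the higher side, with ratios of 0.57 (whole-cell), 0.55 (nuclear) and 0.11 (cytosolic) and counting errors of 0.0732, 0.0615 and 0.0719. Its nuclear and whole-cell levels in knockdown cells were 147% and 149% of the control levels. EIF4A2 was the abundant member with the largest difference in the same direction throughout, at 0.33 (whole-cell), 0.29 (nuclear) and 0.37 (cytosolic), or 126%, 122% and 130% of the control levels, with counting errors of at most 0.0355.

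The localization shift is the log2 nuclear to cytosolic ratio in knockdown minus that in control cells, so a value above 0 is toward the nucleus after knockdown. Its median was 0.14 over the members, against 0.00058 over all loci, and 37 of 53 were above 0 (background 50.1%). With equal totals 33 were above 0. That scaling lowered the all-loci median as well, to -0.03, and the share of all loci above 0 was not computed for it. All 5 loci of the eIF2 group, EIF2A and EIF2D among them, and all 5 eIF2B loci were above 0, with medians of 0.20 and 0.12. So were 11 of 14 eIF3 loci, with a median of 0.22. Equal totals left 4 eIF2 and 9 eIF3 loci above 0. The subunits EIF3L and EIF3J had shifts of 0.48 and 0.41, and the 9 known TOP genes a median of 0.20, with 7 above 0. EEF1A1, one of these 9, had a shift of 0.32, and EEF1A2, which is not among them, -0.24. Past 1.5-fold lay EIF4E3 upward, at 0.62 with a counting error of 0.248 (background 7.58%), and EIF3J-AS1 downward, at -1.24 (background 9.19%). The median shift was also above 0 over the 32 regulators and partners described below, at 0.11. Of the RNAs used to check the fractions, MALAT1 had a shift of 0.66 and GAS5 of 0.13, and NEAT1, another nuclear RNA, -0.10. Every shift also carries any difference in how cleanly the fractions of each condition were separated, which was not tested.

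EIF3J-AS1 (chromosome 15, 44819454 to 44829121 on hg19) is a noncoding RNA that RefSeq calls EIF3J-DT, a divergent transcript of EIF3J. In the deposited table it ends 132 bases before the EIF3J locus starts, at 44829254. It had 4.51 FPKM in whole-cell, 4.09 FPKM in nuclear and 4.80 FPKM in cytosolic RNA of knockdown cells, against 2.74, 2.67 and 1.27 FPKM in the same preparations of control cells. The knockdown level was higher in each preparation, by 1.64-fold for whole-cell, 1.53-fold for nuclear and 3.77-fold for cytosolic RNA, and in log2 terms 0.70 (whole-cell), 0.60 (nuclear) and 1.84 (cytosolic). In control cells it was 2.10-fold higher in nuclear than cytosolic RNA, and in knockdown cells 1.17-fold higher in cytosolic RNA, a direction that turns with the scaling: the log2 nuclear to cytosolic ratio in knockdown cells was -0.23 as deposited, 0.36 with centring and 0.87 with equal totals. EIF3J itself, the loosely bound eIF3 subunit, had 53.1 whole-cell, 47.9 nuclear and 123 cytosolic FPKM in knockdown cells, and 46.6 whole-cell, 40.9 nuclear and 139.8 cytosolic FPKM in control cells, and its log2 ratios were 0.19 (whole-cell), 0.23 (nuclear) and -0.18 (cytosolic). Although the libraries were strand-specific per the labels, it is not stated whether counting used the strand, so fragments of overlapping transcripts could have been counted at either locus. The number of fragments behind EIF3J-AS1 was not estimated, and at a pseudocount of 1 it was past 1.5-fold in cytosolic RNA and in the shift only. With either scaling its nuclear ratio was inside 1.5-fold, at 0.57.

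The stretch between the divergent starts is shown because 2 members begin there. It runs 5′ to 3′ on the plus strand of GRCh38.p14, per RefSeq, with the 223 bases between the EIF3J-DT start at 44536923 and the EIF3J start at 44537147 in capitals.
EIF3J window (chr15:44536897-44537166, plus strand): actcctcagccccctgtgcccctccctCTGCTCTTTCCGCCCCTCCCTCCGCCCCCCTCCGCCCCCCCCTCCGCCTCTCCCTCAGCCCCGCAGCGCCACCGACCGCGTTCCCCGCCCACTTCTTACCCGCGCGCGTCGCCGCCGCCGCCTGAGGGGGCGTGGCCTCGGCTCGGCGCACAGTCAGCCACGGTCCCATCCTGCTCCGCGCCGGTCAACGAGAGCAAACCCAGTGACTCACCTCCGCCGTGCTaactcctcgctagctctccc
The EIF3J start in it does not hold the pyrimidine tract as defined.

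EIF1AX-AS1, a 478-base locus inside EIF1AX, lay just under the minimum mean, with 0.371 FPKM in knockdown and 1.21 FPKM in control whole-cell RNA, and 0.702 FPKM in knockdown and 3.28 FPKM in control nuclear RNA. It was listed at 0 in both cytosolic libraries. EIF1AX, a scanning factor, had 20.3 whole-cell, 19.5 nuclear and 61.8 cytosolic FPKM in knockdown cells, and 17.4 whole-cell, 15.7 nuclear and 55.1 cytosolic FPKM in control cells. EIF2S3L, EIF2B5-AS1, EIF2B5-IT1 and the pseudogene EIF4EBP2P were listed at 0 in all 6 libraries, and EIF4E1B and EIF5AL1 stayed under 0.1 FPKM in each.

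Most regulators and partners of these factors were also close to their control levels. Of a list of 35 such genes outside the rule, EIF4EBP1 to EIF4EBP3 among them since their names end like those of pseudogenes, 32 were analysed: the binding proteins and kinases of the factors, poly(A)-binding proteins, release factors, the enzymes of hypusine and the mTOR pathway. Past 1.5-fold in any knockdown comparison were 3 of the 53 translation factors and 22.1% of all loci, a share not matched for level. Among the 32 it was EIF4ENIF1 alone, which carries eIF4E into the nucleus and to P-bodies. It had 4.49 FPKM in whole-cell, 9.04 FPKM in nuclear and 4.40 FPKM in cytosolic RNA of knockdown cells, against 9.86, 5.66 and 4.37 FPKM in the same preparations of control cells. Its log2 ratios of -1.12 (whole-cell), 0.67 (nuclear) and 0.01 (cytosolic) point in opposite directions. EIF4EBP1, the mTOR-controlled repressor of eIF4E, had 82.7 whole-cell, 52.1 nuclear and 280.5 cytosolic FPKM in knockdown cells, and 71.3 whole-cell, 58.9 nuclear and 295 cytosolic FPKM in control cells. Its relative EIF4EBP2 had 28.8 FPKM in knockdown and 24.6 FPKM in control whole-cell RNA, 16.5 FPKM in knockdown and 12.2 FPKM in control nuclear RNA, and 108 FPKM in knockdown and 102 FPKM in control cytosolic RNA. PABPC1, the cytoplasmic poly(A)-binding protein that closes the mRNA loop, had 654 whole-cell, 483 nuclear and 2068 cytosolic FPKM in knockdown cells, and 575 whole-cell, 499 nuclear and 2041 cytosolic FPKM in control cells. The median log2 ratio of the 32 was 0.15 for whole-cell RNA, 0.11 for nuclear RNA and -0.0013 for cytosolic RNA, beside 0.13, 0.16 and 0.03 for the translation factors.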

How the data were processed

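The authors deposited 1 table with an FPKM column for each of the 6 libraries. No header gives the unit, which follows from the values and the tools named. Tools listed by the submitters' processing notes, without roles, are Cuffdiff 2.2.1, TopHat2 2.0.13, FastQC and CASAVA; the human build listed is hg19. Not given in the sources used here are the annotation, the library scaling, strand use in counting and whether the preparations of a condition share a culture.

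Kept were 12824 loci averaging 1 FPKM or more, without Y-linked loci and XIST. Ratios are differences of log2(FPKM + 0.1), which understate the change of low loci. With 1 library per group, no comparison within a preparation can be tested. A fit with condition and preparation as terms, which would use the preparations in place of replicates, was not run. Differences are named by size: 1.5-fold for knockdown ratios and the shift, 2-fold for nuclear against cytosolic RNA. Counts by size as deposited stand beside the same over all loci (background). Loci with several gene names were kept whole: 10 of the 53 members. Depth was estimated from the steps of low FPKM values at single-exon loci, and counting errors from it and GENCODE 29 transcript lengths, for 52 members; PCR copies are not separated, so they cover counting only. Coding lengths are from GENCODE 29 by symbol, taking the longest annotated coding sequence of each gene.

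Members, complexes and lists (known TOP genes, regulators) were chosen with earlier results of these data known. Values in all libraries are given, per complex, for the most abundant member in control whole-cell RNA and those with the highest and lowest control nuclear to cytosolic ratio, for members past 1.5-fold, and for the paralogs of eEF1A, eIF1, eIF4A, eIF4E, eIF4G and eIF5A. From the regulators, those past 1.5-fold and EIF4EBP1, EIF4EBP2 and PABPC1 are given. EIF1AX, EIF2B2, EIF2S2, EIF3A, EIF3H, EIF3J, EEF1B2, EEF1D, EEF1G and EIF1AX-AS1 are named beyond this rule and were chosen after their values were seen. Alternatives were another pseudocount, other minimum means, 2 scalings and leaving out merged loci. Calculations used Python 3.11.15, numpy 2.4.6, pandas 2.3.3 and matplotlib 3.10.9 and were tested on simulated data.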

Additional observations from a re-analysis of the deposited data

Results flagged for a closer look

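Of the 53 members, 6 (11.3%) differed from control by at least 1.1-fold in opposite directions in a pair of preparations, against 26.5% of all 12824 loci. Those loci were not matched to the members for level. Each preparation has 1 knockdown and 1 control library, and the difference was not tested. For EIF4E3 the log2 ratio of knockdown to control was 0.81 higher in nuclear than in whole-cell RNA, for EIF5A2 it was 0.53 higher in nuclear than in cytosolic RNA, and for EIF4A3 0.54 higher in whole-cell than in nuclear RNA. For EIF2B2, the beta subunit of eIF2B, it was 0.62 higher in whole-cell than in cytosolic RNA. For the eIF3 subunits EIF3L and EIF3J it was 0.48 and 0.41 higher in nuclear than in cytosolic RNA.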

How the results depend on the processing

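Counts and medians over the members were recomputed with a pseudocount of 1 or 0.01, no minimum mean or one of 5 FPKM, libraries centred on the median of loci at 5 FPKM or more, libraries scaled to equal totals (mitochondrial and small RNAs left out), and without loci of several names. Values of 10 named genes were recomputed under the pseudocounts and scalings, and those of complexes and known TOP genes under the scalings. The tract, coding-length and paralog results were not recomputed. Of the counts and medians, 65 stayed within their limits and 19 moved, and of the named genes' values 222 stayed and 18 moved. No value past its size threshold changed sign. Below the threshold, centring turned the members' cytosolic median to -0.0065, and the nuclear to cytosolic ratios of EIF4A3 (to 0.05 in knockdown and 0.50 in control cells), EIF4G3 (0.50 and 0.05) and EIF3J-AS1 in knockdown cells (0.36). Equal totals turned the ratios of the same 3 genes and of EIF4A2, the last to 0.26 in knockdown and 0.38 in control cells. With a pseudocount of 1, members past 1.5-fold numbered 0 in whole-cell and 0 in nuclear RNA and 1 for the shift. With no minimum they numbered 4 in whole-cell RNA, which adds EIF4E1B and EIF1AX-AS1, at means of only 0.03 and 0.93 FPKM. With a minimum of 5 FPKM, which removes EIF4E3 and EIF3J-AS1, they numbered 0 for whole-cell, 1 for nuclear and 0 for cytosolic RNA and 0 for the shift. Centring gave a whole-cell median of 0.051, 1 member past 1.5-fold in nuclear RNA, and nuclear to cytosolic medians of -0.75 in knockdown and -0.72 in control cells, with 20 and 21 members past 2-fold. Equal totals gave 1 member in nuclear RNA, and medians of -0.23 in knockdown and -0.16 in control cells, with 11 and 16 members past 2-fold. Under the pseudocounts and scalings the members' nuclear to cytosolic median was 0.84 to 0.93 below that of all loci. The scalings move both medians nearly together, so they do not check this distance. With a minimum of 5 FPKM the members' median was 0.66 below in knockdown and 0.61 below in control cells. Why other values moved was not tested. No paired analysis was possible because each group has 1 library and no replicate numbers to pair; a fit with preparation as a term was not run. Among the 52 members with an estimate depth limits EIF4E3 most, with a counting error of the shift of 0.248 against a median of 0.0632.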
